A study of Danio rerio with 6 samples.

Results

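The genes described here encode proteins that bind haem, copper or iron: the hemopexin genes hpxa and hpxb, the ceruloplasmin gene cp, the transferrin gene tfa and the metalloreductase gene steap4. Members were all probesets whose only symbol in the platform annotation is 1 of these. They came to 6 of 15502 tested probesets, for 5 of 8793 genes. The genes hpxa, hpxb, cp and tfa have 1 probeset each and steap4 has 2. Whole larvae of zebrafish strain C32, aged 6 days after fertilization and gnotobiotically reared, were compared in 2 groups of 3 biological replicate pools, and each pool held 28 to 80 larvae and was read on its own array. The sample titles end in consecutive numbers, except that of germ-free replicate 3, whose number stands apart. The titles do not say what these numbers mean. The germ-free group had been kept without microbes throughout. The colonized group had been germ-free up to day 3 and had then lived with the microbiota of conventionally raised fish until day 6. The values are linear array intensities, and the comparison addresses how transcript levels depend on the microbiota.

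Free haem and free metal ions promote oxidative damage and are nutrients for microbes, so plasma carries them bound to proteins. In mammals, hemopexin binds free haem and delivers it to the liver, ceruloplasmin carries copper and oxidizes ferrous iron, and transferrin carries ferric iron to cells that take it up through transferrin receptors. The liver makes most of these plasma proteins, and in mammals hemopexin and ceruloplasmin rise in the acute phase of inflammation, whereas transferrin usually falls. Steap4 is a membrane protein that in mammals reduces iron and copper ions so that they can be taken up. The 5 genes were chosen by their difference between colonized and germ-free larvae on these same arrays, so the differences below are a description and not a test. The RNA is from whole larvae, so a change in the number of cells of a type and a change in RNA per cell cannot be told apart.

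All 6 probesets were higher in colonized larvae, and for each of them the lowest colonized pool lay above the highest germ-free pool. Such a separation held in that direction for 12.5% of all tested probesets. In the fit across all probesets (limma, Benjamini-Hochberg adjusted p under 0.05) all 6 were called higher, against a background of 1.28% of probesets called higher. Because the contrast chose the genes, nothing further is read from these counts. Ranks among the 15502 probesets were taken on the signed log2 difference, from the largest increase down. On these, hpxa ranked 2, hpxb 5, cp 10, the brighter steap4 probeset 63, tfa 107 and the dimmer steap4 probeset 117. Differences on the log2 scale are colonized minus germ-free, taken on log2(intensity + 32), which understates changes at low intensity.

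**Figure D1:**
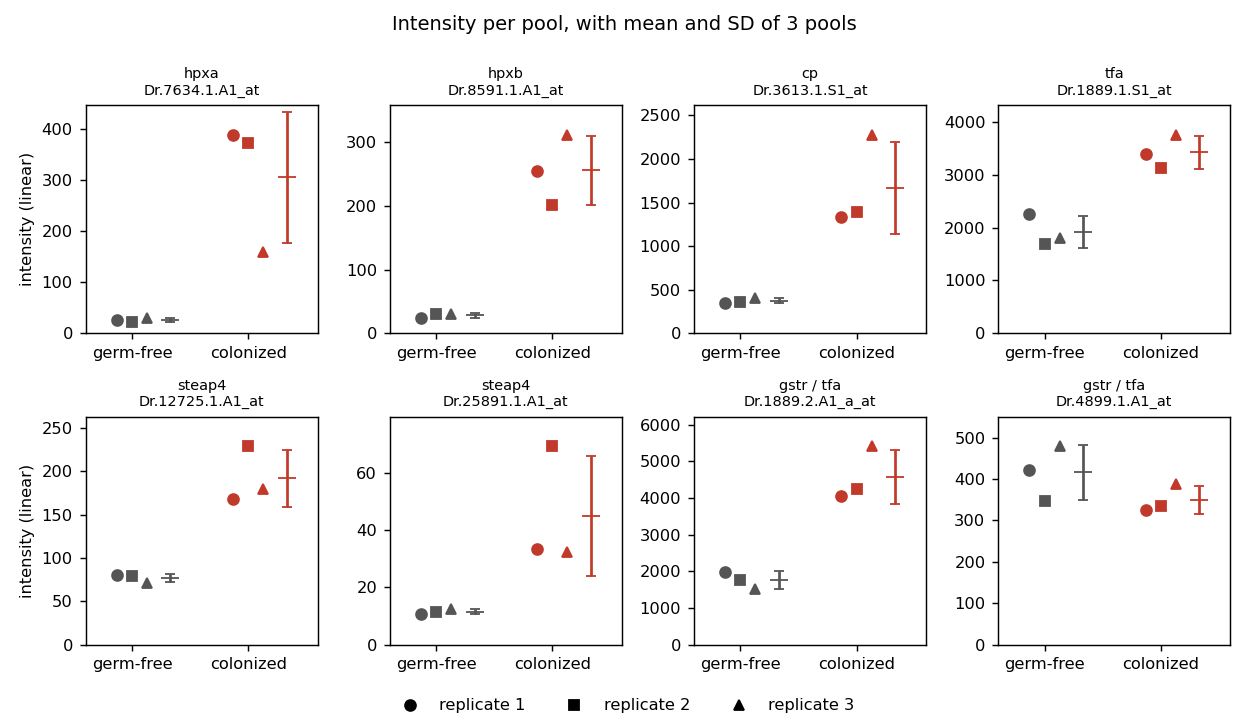
Linear intensity (vertical axis, from 0, scaled separately in each panel) of each of 3 germ-free pools (grey) and 3 colonized pools (red), with symbols for the replicate number and bars for the mean and SD. The first 6 panels are the carrier gene probesets, in which all colonized pools lie above all germ-free pools, and the last 2 are probesets annotated to both gstr and tfa, of which the groups are apart in the first and overlap in the second.

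Hemopexin scavenges haem released from damaged red cells and muscle. The hpxa probeset Dr.7634.1.A1_at had intensities of 26.2, 22.9 and 30.2 in germ-free replicates 1, 2 and 3 and of 388, 372 and 158 in colonized replicates 1, 2 and 3. The group means were 26.5 ± 3.67 and 306 ± 128 (SD, n = 3 pools), which is a ratio of 11.6 and a log2 difference of 2.45 ± 0.25 (SE). Colonized replicate 3 was the low pool of its group, at 5.24 times the highest germ-free pool. Without that pool the log2 difference was 2.82. The colonized pools ranged over 2.45-fold and the germ-free pools over 1.32-fold.

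The second hemopexin gene, hpxb, is carried by the probeset Dr.8591.1.A1_at. Its intensities were 23.9, 30.4 and 30.7 in germ-free replicates 1 to 3 and 255, 202 and 311 in colonized replicates 1 to 3. The group means were 28.3 ± 3.80 and 256 ± 54.8, a ratio of 9.04 and a log2 difference of 2.24 ± 0.14 (SE). Colonized replicate 3, the lowest pool of its group for hpxa, was the highest for hpxb. For both hemopexin probesets every germ-free pool lay below 32, the value added before the log2 step, in a range where 2831 to 3062 probesets per array lie. Presence calls were not used here, so whether these germ-free values exceed background was not tested, and the ratios of 11.6 and 9.04 are correspondingly imprecise. The log2 differences move with the added value. With 100 added they were 1.63 for hpxa and 1.46 for hpxb, and with 16 added 2.83 and 2.60.

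The copper carrier gene cp had a measurable level in both groups. Its probeset Dr.3613.1.S1_at gave 352, 361 and 407 in germ-free replicates 1 to 3 and 1334, 1397 and 2273 in colonized replicates 1 to 3. The means were 373 ± 29.7 and 1668 ± 525, a ratio of 4.47 and a log2 difference of 2.03 ± 0.18 (SE). Colonized replicate 3 stood above the other 2 colonized pools, and without it the log2 difference was 1.79. The lowest colonized pool was 3.27 times the highest germ-free pool. With 16 and 100 added the log2 difference was 2.07 and 1.86, so the order of cp and the hemopexin genes by size depends on the added value.

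The iron carrier gene tfa had a smaller proportional difference. Its probeset Dr.1889.1.S1_at gave 2265, 1695 and 1806 in germ-free replicates 1 to 3 and 3399, 3117 and 3746 in colonized replicates 1 to 3. The means were 1922 ± 302 and 3421 ± 315, a ratio of 1.78 and a log2 difference of 0.83 ± 0.11 (SE). The groups came closest here of the 6 probesets, with the lowest colonized pool at 1.38 times the highest germ-free pool. Germ-free replicate 1 was the high pool of its group, and without it the log2 difference was 0.95.

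The platform annotation gives 2 further probesets both tfa and gstr, a glutathione S-transferase gene, so neither can be assigned to tfa and neither is counted among the members. One of them, Dr.1889.2.A1_a_at, shares its cluster number with the tfa probeset. It gave 1993, 1760 and 1521 in germ-free and 4066, 4253 and 5409 in colonized replicates 1 to 3, a log2 difference of 1.36 ± 0.12 (SE) with no overlap between the groups. The other, Dr.4899.1.A1_at, has a different cluster number. It gave 421, 348 and 479 in germ-free and 325, 334 and 389 in colonized replicates 1 to 3, so that the groups overlapped, with a log2 difference of -0.23 ± 0.13 (SE; limma adjusted p = 0.488). The estimates for these 2 probesets thus lie on opposite sides of 0 although both carry the same pair of symbols; the difference between them was not tested. The gene gstr had 0 probesets of its own.

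The metalloreductase gene steap4 was represented by 2 probesets that ran the same way. The brighter one, Dr.12725.1.A1_at, gave 79.7, 79.3 and 71.4 in germ-free replicates 1 to 3 and 167, 229 and 179 in colonized replicates 1 to 3. Its means were 76.8 ± 4.66 and 192 ± 32.5, a ratio of 2.50 and a log2 difference of 1.03 ± 0.12 (SE). The dimmer one, Dr.25891.1.A1_at, gave 10.7, 11.5 and 12.4 in germ-free and 33.2, 69.3 and 32.4 in colonized replicates 1 to 3. Its means were 11.5 ± 0.84 and 45.0 ± 21.1, a ratio of 3.90 and a log2 difference of 0.79 ± 0.15 (SE). All its germ-free values lay below 32, the value added before the log2 step, so this ratio is imprecise. Colonized replicate 2 was the highest pool on both probesets. The dimmer probeset was not called with 100 added, at a log2 difference of 0.37, nor without germ-free replicate 1 (0.78) or 2 (0.79), nor without the first colonized pool (0.89). Without colonized replicate 2 its log2 difference was 0.57.

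**Figure D2:**
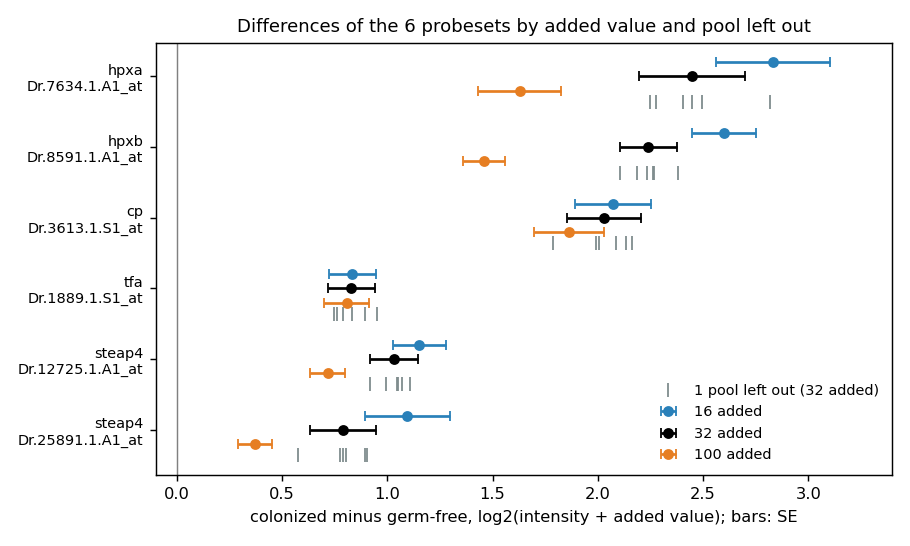
Difference between colonized and germ-free pools (horizontal axis, log2 of intensity plus the added value) for the 6 probesets, with 16, 32 or 100 added (points, with SE bars) and with each pool left out in turn at 32 added (grey ticks). All values lie above 0; those of hpxa and hpxb fall from 2.83 and 2.60 to 1.63 and 1.46 between 16 and 100 added, while tfa stays between 0.81 and 0.83.

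Within the colonized group the 5 genes did not follow a single order of pools. Replicate 3 was the highest pool for hpxb, cp and tfa, the lowest for hpxa and for the dimmer steap4 probeset, and the middle pool for the brighter steap4 probeset. Relative to the colonized group mean on the log2 scale, replicate 3 deviated by 0.48 for cp, 0.27 for hpxb and 0.13 for tfa, but by -0.74 for hpxa. Markers of hepatocytes other than these genes moved the same way as cp in that pool: the median deviation of 17 markers was 0.23 in replicate 3, against -0.15 in replicate 1 and -0.03 in replicate 2. This was not particular to hepatocytes. In colonized replicate 3 the median deviation was 0.30 for erythrocyte markers, 0.14 for enterocyte markers and 0.002 for neutrophil and macrophage markers. It was 0.08 over the genes of the 8 haem, iron and copper lists described below. Replicate 2 deviated by 0.23 and 0.43 on the 2 steap4 probesets. With 3 pools per group these orders are a description.

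**Figure D3:**
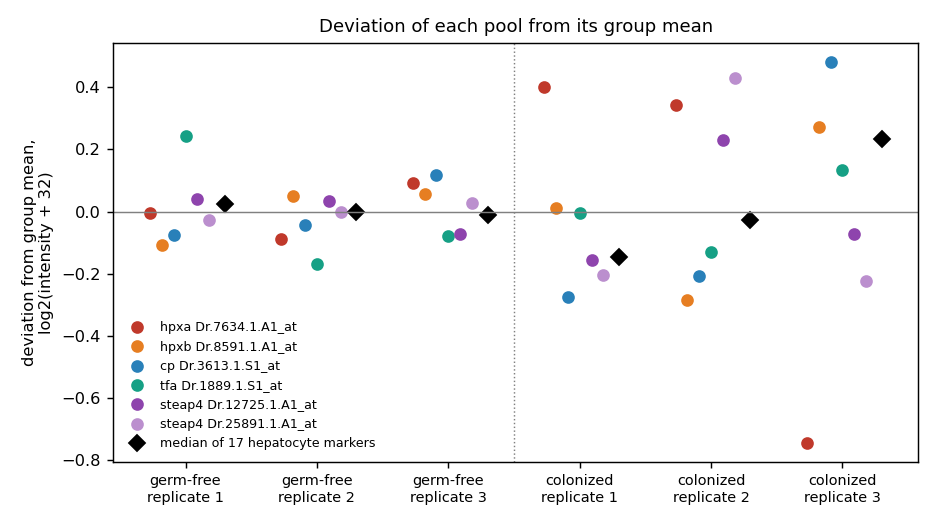
Deviation of each pool from the mean of its group (vertical axis, log2 of intensity plus 32) for the 6 probesets (coloured points) and the median deviation of 17 hepatocyte markers (black diamonds), by pool (horizontal axis). In colonized replicate 3, hpxa lies at -0.74 while cp, hpxb and tfa lie between 0.13 and 0.48; in colonized replicate 2 both steap4 probesets lie above 0.

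The arrays had median intensities of 86.0 to 93.8. Beside the rise of the carrier genes, hepatocyte markers had a summed intensity of 22195 to 23357 in germ-free and 24412 to 29977 in colonized pools, a ratio of means of 1.18. Over all genes, with 1 probeset each, 1.51% were called higher and 0.535% lower. Of the 17 hepatocyte markers 3 were called higher, namely plg, uox and bhmt. The 17 log2 differences had a median of 0.23 and ran from 0.00016 to 0.92. An unadjusted p under 0.05 (limma) was reached by 8 of the 17, and by 14.6% of all genes. In 9 of the 17 all colonized pools lay above all germ-free pools, and in 0 below. The first held for 12.5% of all tested probesets, a share over probesets and not over 1 probeset per gene. No such share was taken for the second. The markers fabp10a and apoa2, named after their values were seen, were not called (adjusted p = 0.467 and 0.453). Nor were shbg and kng1, named likewise, with log2 differences of 0.52 each (adjusted p = 0.110 and 0.113). Markers of neutrophils and macrophages had sums of 732 to 817 and 1978 to 2393, a ratio of 2.81, with 7 of 11 called higher. Of these sums mmp9 made up 9.57% in germ-free and 24.4% in colonized pools, and without it the ratio was 2.35. The 11 log2 differences had a median of 0.64, and 10 had an unadjusted p under 0.05 (limma). In 10 of the 11 all colonized pools lay above all germ-free pools, and in 0 below. The lowest of the 11 log2 differences was that of csf1ra, at -0.13 ± 0.10 (SE, limma adjusted p = 0.646), with overlap between the groups. Erythrocyte markers had sums of 1739, 1436 and 4293 in germ-free replicates 1 to 3 and 5850 to 9509 in colonized pools, a ratio of 2.86, with 2 of 11 called higher. That ratio was 4.49 without germ-free replicate 3, and the globin gene hbae3, which was not called, made up 65.2% of the germ-free and 70.1% of the colonized sum. Without hbae3 the ratio was 2.46. The 11 log2 differences of the erythrocyte markers had a median of 0.73, and 8 had an unadjusted p under 0.05 (limma). In 9 of the 11 all colonized pools lay above all germ-free pools, and in 0 below. Enterocyte markers had sums of 7184 to 8338 and 5267 to 6204, a ratio of 0.711, with 3 of 8 called lower (fabp2, rbp2a and fabp6) and 0 higher. The enterocyte markers did not run one way: vil1 and cldn15la, named after their values were seen, had log2 differences of 0.46 ± 0.14 and 0.44 ± 0.13 with no overlap between the groups (adjusted p = 0.173 and 0.143). No marker measured was at 0 on all arrays. As a sign of RNA quality, the 3' control probeset of acta1 exceeded its 5' counterpart by 2.35 to 2.64 on the log2 scale in germ-free pools and by 2.79 to 3.00 in colonized pools, and for gapdh by 0.31 to 0.60 and 0.27 to 0.48. The part of these differences in the rise of the carrier genes was not tested.

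Other genes of iron, haem and copper biology, for cellular transporters, enzymes and regulators and for some further plasma proteins, were examined from 8 lists, with 1 probeset per gene. The lists named 126 gene symbols, with older and newer symbols of the same gene, such as hfe2 and hjv, counted separately. Of these symbols 56 had a probeset that carried them alone. Of 56 measured genes 2 were called higher, 0 lower and 54 were not called, so that 3.57% were called beside a background of 2.05% of all measured genes, and with only 2 calls nothing particular to the lists is read from this. The median log2 difference was 0.07, beside 0.02 over all genes. At an unadjusted p under 0.05 there were 13 of the 56, a larger share than the 14.6% (1288 of 8793) of all measured genes. In 13 of the 56 all colonized pools lay above all germ-free pools, and in 2 below. The first held for 12.5% of all tested probesets, a share over probesets and not over 1 probeset per gene. For the second no background share was taken. The lists were chosen with earlier results of these data known, so these shares are a description. The number called higher depended on single pools: it was 5 without germ-free replicate 3, where fthl27, ncoa4 and blvrb were added, and 1 on leaving out replicate 1 or 2 of either group.

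The 2 genes called were alas2 and f5. The gene alas2 encodes the erythroid enzyme that begins haem synthesis. It gave 136, 148 and 153 in germ-free and 239, 227 and 344 in colonized replicates 1 to 3, a log2 difference of 0.75 ± 0.14 (SE; limma adjusted p = 0.0271), and the groups did not overlap. It is also one of the erythrocyte markers. Their sum was 2.86 times as high in colonized pools, or 4.49 times without germ-free replicate 3, and mostly came from hbae3. In 9 of these 11 markers, alas2 among them, all colonized pools lay above all germ-free pools, which held for 12.5% of all tested probesets. On leaving out replicate 1 or 2 of either group alas2 missed the threshold (adjusted p 0.0575 to 0.103). The gene f5 encodes coagulation factor V, a clotting protein whose domains resemble those of ceruloplasmin and which does not handle metals as its known task. It gave 111, 96.9 and 135 in germ-free and 342, 341 and 361 in colonized replicates 1 to 3, a log2 difference of 1.38 ± 0.11 (SE; adjusted p = 0.000199).

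**Figure D4:**
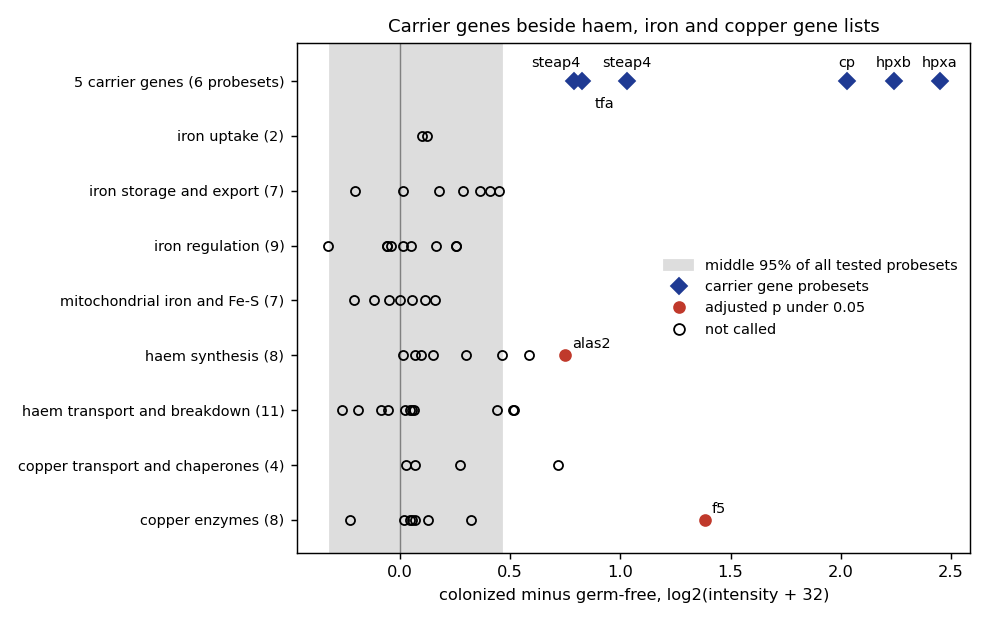
Difference between colonized and germ-free pools (horizontal axis, log2 of intensity plus 32) for the 6 carrier gene probesets (diamonds) and for the measured genes of 8 haem, iron and copper lists (circles, filled where the adjusted p was under 0.05; the number of genes is in brackets). The shaded band holds the middle 95% of all tested probesets, from -0.32 to 0.46; the carrier genes lie to its right and most list genes lie within it.

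Of haem synthesis genes 1 of 8 was called, alas2, with a median of 0.23 and 3 at an unadjusted p under 0.05. Besides alas2 these were urod and cpox, named after their values were seen. Their log2 differences were 0.59 ± 0.14 and 0.30 ± 0.09 (SE; limma adjusted p = 0.0748 and 0.189). For both, all colonized pools lay above all germ-free pools, which held for 12.5% of all tested probesets. The housekeeping counterpart of alas2, alas1, also named after its values were seen, had 1868 and 2560 in germ-free and colonized pools (log2 difference 0.46 ± 0.26, adjusted p = 0.496). Of 11 genes of haem transport and breakdown 0 were called, with a median of 0.05. At an unadjusted p under 0.05, a level reached by 14.6% of all genes, there were 4 that went both ways, and these are named after their values were seen. The biliverdin reductase gene blvrb had a log2 difference of 0.44 ± 0.15 (SE, adjusted p = 0.235), with all its colonized pools above all germ-free pools. The gene pgrmc2, of a family of haem-binding membrane proteins, had -0.26 ± 0.09 (SE, adjusted p = 0.248), with all its colonized pools below all germ-free pools. The others were the haptoglobin gene hp, whose product binds free haemoglobin upstream of haem release, and the haem-binding plasma protein gene ambp. The gene ambp is also among the hepatocyte markers above and was counted there too. In germ-free replicates 1 to 3, hp gave 256, 217 and 202, and in colonized replicates 1 to 3 it gave 263, 317 and 440, a log2 difference of 0.51 ± 0.16 (SE; adjusted p = 0.189). The values of ambp were 241, 242 and 239 and then 291, 343 and 462, with a log2 difference of 0.52 ± 0.14 (SE; adjusted p = 0.131). For hp and ambp, all colonized pools lay above all germ-free pools and colonized replicate 3 was the highest, as for cp, but neither passed the test.

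Of 7 genes of iron storage and export 0 were called, with 4 at an unadjusted p under 0.05, a level reached by 14.6% of all genes, and a median of 0.29. In these 4, fth1a, fthl27, fthl30 and ncoa4, all colonized pools lay above all germ-free pools, which held for 12.5% of all tested probesets. The ferritin heavy chain gene fth1a, which stores iron in cells, gave 3754, 3915 and 3007 in germ-free and 4377, 4630 and 3969 in colonized replicates 1 to 3 (log2 difference 0.29 ± 0.10, adjusted p = 0.246). The ferritin-like genes fthl27 and fthl30, named here after their values were seen, had log2 differences of 0.41 ± 0.14 and 0.36 ± 0.10 (adjusted p = 0.217 and 0.113), while fthl28 had -0.20 ± 0.23 (adjusted p = 0.757). The probesets of these 3 share a cluster number, and closely related ferritin sequences can share probes, so their values are uncertain for single genes. The ferritin receptor for autophagy, ncoa4, likewise named after its values were seen, had 273 and 385 (log2 difference 0.45 ± 0.10, adjusted p = 0.0673). Ferroportin, which exports iron from cells, is encoded by slc40a1, which had 276, 219 and 198 in germ-free and 272, 251 and 267 in colonized replicates 1 to 3. Its groups overlapped, with a log2 difference of 0.18 ± 0.12 (adjusted p = 0.573), and of 0.086 to 0.30 with 1 pool left out.

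Iron uptake was represented by 2 genes, of which 0 were called and 0 had an unadjusted p under 0.05. The ferrous iron transporter gene slc11a2 had 325 and 357 (log2 difference 0.13 ± 0.10, adjusted p = 0.654). Of 16 listed gene symbols of iron regulation 9 were measured. Of these 0 were called, with 1 at an unadjusted p under 0.05 and a median of 0.01. That gene was neo1a, named after its value was seen, with 172 and 130 (log2 difference -0.33 ± 0.11, limma adjusted p = 0.229). All its colonized pools lay below all germ-free pools. Among the 9 measured genes aco1, which encodes the cytosolic aconitase that doubles as an iron sensor, had 207 and 200 (log2 difference -0.06 ± 0.14, adjusted p = 0.895). Of 7 genes of mitochondrial iron and iron-sulfur assembly 0 were called, with 0 at an unadjusted p under 0.05, and the log2 differences ran from -0.21 to 0.16. Genes for the transferrin receptors tfr1a and tfr2, the haem oxygenase hmox1a, the iron sensor ireb2, the copper pump atp7b and the metallothionein mt2 are not analysed here, since no probeset carried their symbol alone. The same held for hamp, hjv, tmprss6 and smad4a of the iron regulation list, so iron regulation was only partly covered.

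Of 4 genes of copper transport and chaperones 0 were called, with 0 at an unadjusted p under 0.05 and a median of 0.17. The copper importer gene slc31a1 had 2 probesets that disagreed. On the brighter, Dr.6847.1.S1_a_at, germ-free replicates 1 to 3 gave 263, 196 and 64.9 and colonized replicates 1 to 3 gave 220, 274 and 342, a log2 difference of 0.72 ± 0.33 (SE; adjusted p = 0.401), and germ-free replicate 3 stood far below the other pools. The log2 difference was 0.24 without germ-free replicate 3 and 1.04 without germ-free replicate 1. On the second probeset, Dr.6847.2.S1_at, the log2 difference was -0.02 (adjusted p = 0.952). Of 8 measured genes on the copper enzyme list 1 was called, the clotting protein gene f5, which does not handle metals as its known task. The copper and zinc superoxide dismutase gene sod1, named after its value was seen, had 555 and 471 (log2 difference -0.23 ± 0.11, adjusted p = 0.430).

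The probesets most like each carrier gene over the 6 pools were found by Pearson's r of log2(intensity + 32) among 5685 single-symbol probesets whose brighter group had a mean of 100 or more. The 6 pools fall into 2 groups, so these values mainly follow the difference between groups, and 62 to 118 candidates reached an r of at least 0.95 for a given carrier gene. They are given as a description. Pearson's r does not measure the size of a difference. The log2 differences of the 15 probesets named below ran from 0.16 (znf462) to 1.56 (gpx1b). That of eif6 was 0.18, beside 2.24 for hpxb, and that of litaf was 0.24, beside 2.45 for hpxa. For hpxa the 3 closest were the amino acid transporter gene slc7a8a (r = 0.997), litaf (r = 0.994) and the stress-induced phosphatase subunit gene ppp1r15a (r = 0.990). They were chosen by r over these same 6 pools, so a shared order of pools follows largely from the choice. All 3 had colonized replicate 3 as the lowest colonized pool, as hpxa did. The values of slc7a8a were 553, 569 and 475 in colonized replicates 1 to 3 and 325 to 341 in germ-free pools. For hpxb they were the phospholipase gene pla2g15 (r = 0.997), the antitrypsin-like gene serpina1l (r = 0.997) and the ribosome assembly factor gene eif6 (r = 0.995).

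For cp the closest were the apolipoprotein gene apoeb (r = 0.998), the glutathione peroxidase gene gpx1b (r = 0.998) and cuzd1.1 (r = 0.997). Here too the choice by r favours probesets with the pool order of the carrier gene. Colonized replicate 3 was the highest pool for all 3, and gpx1b gave 586, 593 and 893 in colonized replicates 1 to 3, the same order as cp. For tfa they were the keratin gene krt18a.1 (r = 0.995), the growth factor gene igf2b (r = 0.993) and the mitochondrial import receptor gene tomm20b (r = 0.993). For the brighter steap4 probeset they were the ethanolamine kinase gene etnk1 (r = 0.996), si:ch211-79k12.1 (r = 0.992) and znf462 (r = 0.991). The 5 carrier genes shared 0 of these nearest neighbours, and 0 of the 5 was among the 3 closest to another. With only 3 kept of many close candidates, this does not show that the carrier genes were unlike each other. Between their brightest probesets r ran from 0.861 (hpxa and tfa) to 0.988 (hpxb and cp). These values too mainly follow the difference between groups.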

How the data were processed

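The deposited intensities are linear. Per the labels and the series' design text, the authors labelled 12 ug of total RNA per pool, hybridised 20 ug of cRNA to a 1-colour Affymetrix array, normalized by the invariant set method and summarised with the PM-MM model in dChip. Depth has no meaning for arrays, and the number of pools limits the precision. Of 15617 probesets 115 controls were left out and 15502 tested without a filter. Symbols came from the platform annotation, updated through Entrez identifiers with the GRCz12tu gene table (10711 of 10795 single-symbol probesets found).

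Log2(intensity + 32) was fitted with limma 3.58.1 in R 4.3.3, with the group as the only term and an intensity trend. Tests were two-sided and adjusted by Benjamini-Hochberg over all probesets. Each list gene is shown by its brightest probeset on the log2 scale. The fit was tested on simulated data. Members, lists and tests were chosen with earlier results of these data known. Named were all member probesets, called list genes, a fixed set of list genes, and the 3 closest probesets per carrier gene; further list and marker genes were named after their values were seen. Alternatives were other added values, quantile normalization, a filter, no trend, a replicate block, and leaving out each pool.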

Additional observations from a re-analysis of the deposited data

How the results depend on the processing

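All 6 member probesets were called higher at 32 added, and the number called was 5 to 6 over all alternatives run, including each pool left out. The exception was the dimmer steap4 probeset Dr.25891.1.A1_at: with 100 added its log2 difference was 0.37 (adjusted p = 0.0518), with 1 pool left out it ran from 0.57 to 0.90 (adjusted p 0.0221 to 0.106), and it was removed by the filter on mean intensity of at least 50. Over the pools left out, hpxa ran from 2.25 to 2.82, hpxb from 2.103 to 2.38, cp from 1.79 to 2.16, tfa from 0.74 to 0.95 and the brighter steap4 probeset from 0.92 to 1.11. The number of changed probesets was 263. It was 410 without germ-free replicate 3, and 114 to 210 with any other single pool left out. List genes called higher numbered 2, and 1 to 5 with 1 pool left out, while 0 were called lower. Of named list genes, aco1, at -0.06 with all pools, ran from -0.21 to 0.021 with 1 pool left out, and lay above 0 without colonized replicate 1 or 2. The brighter slc31a1 probeset, at 0.72, ran from 0.24 to 1.04. Leaving pools or the brightest gene out of the marker sums was added after seeing the data and moved only the erythrocyte ratio, 2.86, by over 1.5 times (4.49 without germ-free replicate 3). The sample titles do not state whether replicate numbers pair the pools, and the main fit did not pair them. Same-numbered deviations correlated at -0.08, 0.10 and 0.07, beside -0.16 to 0.09 between pools of different number. These values cannot settle whether the pools were paired. With a replicate block 274 probesets, 6 member probesets and 2 list genes were called. The cause of these changes was not tested. Intensities of hpxa, hpxb and the dimmer steap4 probeset in germ-free pools lie below 32, which limits how exact their ratios are.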
